A study of Mus musculus with 40 samples.

Results

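The insulin-like growth factor (IGF) system was followed through 9 genes: the ligands Igf1 and Igf2, the receptor Igf1r, and the binding proteins Igfbp2, Igfbp3, Igfbp4, Igfbp5, Igfbp6 and Igfbp7. A probe was a member if its gene symbol in the deposited fold change table was one of these names, which gave 17 of 40628 probes and 9 of 29411 symbols. IGF1 and IGF2 are secreted hormones related to insulin that bind the receptor tyrosine kinase IGF1R and promote growth, survival and differentiation. The liver makes most of the circulating IGF1 under growth hormone, but fat tissue also makes its own, and IGF1 drives the differentiation of fat cell precursors. Binding proteins hold the ligands outside cells, which can block or prolong their action, and several also act on cells without a ligand.

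The study asked how a high-fat diet, and the botanical formulation Kal-1 given with it, change gene expression over time in C57BL/6J mice that entered the diets after weaning, at 3-4 weeks of age. RNA came from subcutaneous SVCs, the stromal vascular cells of the fat under the skin, which the series title calls infiltrating macrophages, and was read on 1-colour Agilent 44K arrays. LFC mice ate the low-fat control, a normal diet with 10% of its calories from fat. HFC mice ate a high-fat, high-sucrose diet with 60% of its calories from fat, and HF5, HF20 and HF75 mice ate the HFC diet with 5, 20 or 75 µg of Kal-1. There are 11 arrays of LFC and 11 of HFC, for days 1, 6, 10 and 14 and weeks 0, 3, 6, 9, 12, 15 and 18. HF5 had 6 arrays, at weeks 3, 6, 9, 12, 15 and 18, and HF20 and HF75 had 5 arrays each, at weeks 3, 6, 9, 12 and 15. The series text speaks of 3 biological replicates, but the labels give 1 array per diet and time point, so a value at a single time has no replicate error. The labels do not say whether an array holds RNA of a single mouse or of several. The liver part of the study counts weeks from day 14, which makes week 0 the same time; the labels here do not say so, and both are kept as separate time points.

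Levels are log2 intensities from which the array's own 75th percentile was subtracted, so a level of 0 equals that percentile and a difference of 1 is a doubling. Levels of different probes are not compared, because probes differ in how strongly they bind. A probe counted as detected when it was marked well above background, and undetected values below the lowest detected level of the array were raised to it. For genes with several probes, the probe with the highest mean level is meant unless another is named. The ratio of spot signal to background had a median per array between 1.53 and 55.4, and the number of arrays limits the precision.

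Markers of several cell types were detected beside those of macrophages. Of 11 macrophage symbols, 9 were on the array, and all 9 were detected on 34 of 38 arrays. Their mean level had a median of 0.60 and ran from -1.67 to 2.21, with Cd14 the brightest probe. Naming the brightest probe of a list does not rank its transcripts. All 9 fibroblast genes were detected on 33 arrays, with a median of 3.68, a range of -4.73 to 4.68 and Dcn the brightest probe. Fibroblast markers were thus about as regular as macrophage markers, and so were those of blood vessels and fat cells. All 8 endothelial genes were detected on 34 arrays (median 1.90, from -4.54 to 3.23, Cldn5 brightest), and all 7 mural genes, of the cells around vessels, also on 34 (median 3.92, from -4.76 to 5.30, Tagln brightest). Of 11 adipocyte symbols, 10 were on the array and all were detected on 33 arrays (median 2.22, from -2.93 to 5.98, Cfd brightest). All 7 skeletal muscle genes were detected on 33 arrays (median 1.32, from -4.51 to 6.40, Tnni2 brightest). The samples therefore hold RNA with the markers of whole stroma, vessels and fat cells, and are called SVCs here rather than macrophages.

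Other lists were detected less regularly. All 6 T cell genes were detected on 26 arrays (median -1.35, from -4.66 to 2.08, Cd3d brightest), and all 5 B cell genes on 17 (median -2.42, from -5.03 to 2.14, Cd79b brightest). All 6 epithelial genes were detected on 26 arrays (median -1.87, from -5.78 to 3.20, Krt18 brightest). These lists mark cells that a dissection of fat can carry in varying amounts. All 4 mesothelial genes were detected on 10 arrays (median -5.55, from -6.97 to 0.65, Msln brightest), and all 4 erythroid genes on the array, of 5 listed, on 8 (median 1.17, from -1.71 to 5.18, Hbb-b1 brightest). No symbol is on more than 1 list, and stroma of fat itself expresses the fibroblast, endothelial, mural and macrophage genes.

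Some arrays stood apart. The LFC array of week 18 had 3 of 9 fibroblast, 5 of 8 endothelial and 3 of 7 mural genes detected, with mean levels of -4.73, -4.54 and -4.76, the lowest of each list, while its macrophage level was 1.27 and its erythroid level of 5.18 was the highest. The HF5 array of week 3 was low in endothelial (-2.35) and mural markers (-1.40) and had the highest T cell level, 2.08. The LFC array of week 3 was dim, with 17.2% of its probes detected, so that undetected values there were raised to -0.06. The LFC array of day 14 had 20.8% of its spots marked as outliers. Their median rank correlations with the other arrays were 0.447 and 0.471, against 0.83 or more for every other array used. Both arrays stay in the main fits of LFC and HFC. Because the LFC array of week 18 carries little stromal signal, several results are also given without it. Titles differ as well. At week 9 those of LFC, HFC, HF5 and HF20 carry the letters WS and that of HF75 does not. The titles of both day 6 arrays have a prefix that no other array has.

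Each of 4 comparisons of diets paired arrays of the same time point. HFC against LFC asked what the high-fat diet did over 11 pairs, and HF5, HF20 and HF75 against HFC asked what each dose of Kal-1 changed over 6, 5 and 5 pairs. Another set weeks 3 to 18 against days 1 to 14 and week 0 in LFC and HFC, where age, time on the diet and scan day cannot be told apart. The last asked whether the HFC effect changed between these periods. The comparisons with HFC share its arrays. In bulk RNA, fewer cells of a type and less RNA per cell cannot be told apart in any of them.

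No member passed an adjusted p of 0.05 in limma in any of the comparisons, although all 9 were bright enough to be tested in each. In HFC against LFC, 0 of 9 members and 0 of 29215 probes (0.0%) were called, and 2 members and 806 probes (2.76%) had an unadjusted p under 0.05. In HF5 against HFC, limma called 0 of 9 members and 0 of 29200 probes (0.0%), with 0 members and 1517 probes (5.2%) under 0.05 before adjustment. In HF20 against HFC, 0 of 9 members and 0 of 30831 probes (0.0%) were called by limma, and 3 members and 3673 probes (11.9%) were under 0.05 before adjustment. HF75 against HFC was the only comparison with calls, 295 of 28910 probes (1.02%), of which 236 were higher and 59 lower. None of the 9 members was among them, and 2 members and 4220 probes (14.6%) had an unadjusted p under 0.05. That count of calls leaned on single weeks: without week 3 it was 0, without week 6 it was 7, and without weeks 9, 12 or 15 in turn it was 200, 95 and 35. Between the periods, limma called 0 of 9 members and 0 of 30259 probes (0.0%), with 0 members and 839 probes (2.77%) under 0.05 unadjusted. For the change in the HFC effect, limma called 0 of 9 members and 0 of 29215 probes (0.0%), with 0 members and 1233 probes (4.22%) under 0.05 unadjusted. These misses do not show that levels were equal: with 5 to 11 pairs, the confidence intervals below are wide.

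Igf1 (Entrez gene 16000) encodes the growth hormone dependent ligand. It was detected on all 38 arrays. In the 5 HF75 arrays, weeks 3 to 15, its level was 1.06, 2.01, 1.49, 1.48 and 1.38, and in the HFC arrays of the same weeks it was 1.55, 3.23, 3.97, 2.01 and 1.84. HF75 was lower at every week and nearly flat, while HFC peaked at week 9, and the ranges overlap. The HF75 difference was -1.03 (95% confidence interval -1.88 to -0.18), which is 2.05-fold lower, with an unadjusted p of 0.0236 and an adjusted p of 0.254 in limma, in 5 of 5 pairs. The other Igf1 probes gave -1.29 (adjusted p 0.188) and -1.47 (adjusted p 0.141), also lower in 5 of 5 pairs, and the probes follow each other closely, with r of 0.985 and 0.844 over 36 arrays. Over the alternatives the adjusted p ran from 0.0992 to 0.997. That range leaves out the dimmest Igf1 probe with array weights, which passed the threshold (-1.09, adjusted p 0.0463 in limma). Week 9 carried much of the difference of the brightest probe: without that pair it was -0.67. In that pair the HFC title carries the letters WS and the HF75 title does not, so diet and this label cannot be told apart there. The other week 9 arrays with WS read 3.83 in LFC, 4.02 in HF5 and 3.94 in HF20. The pairs of weeks 12 and 15, the only ones scanned on 1 day, gave -0.53 and -0.46. Over the alternatives the difference ran from -1.47 to -0.49.

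In HF20, Igf1 stood at 1.20 and 1.60 at weeks 3 and 6 and at 3.94, 4.08 and 3.92 at weeks 9, 12 and 15. It thus rose above HFC at weeks 12 and 15 but lay below it at weeks 3 and 6, and the mean difference was 0.43 (adjusted p 0.723 in limma), higher in 2 of 5 pairs, and 0.02 without week 12 or without week 15. HF5 had -0.02, 2.33, 4.02, 1.33, 1.66 and 1.47 over weeks 3 to 18, lower than HFC in 4 of 6 pairs, by -0.53 on average (adjusted p 0.962), or -0.32 without week 3. In HFC, Igf1 ran from 0.53 at day 1 through a median of 2.01 to 3.97 at week 9, and in LFC from -0.01 at week 18 through 2.03 to 4.87 at day 6. These ranges cover each other, and the HFC against LFC difference of 0.05 (-0.73 to 0.84) had either sign among the alternatives.

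High Igf1 went with high adipocyte markers. The mean of the adipocyte list was between 4.79 and 5.98 on 10 arrays, LFC day 6, week 9 and week 12, HFC day 1, day 6 and week 9, HF5 week 9, and HF20 weeks 9, 12 and 15, and no higher than 3.43 on any other. On these arrays Igf1 lay between 3.61 and 4.87, except at 0.53 on the HFC array of day 1, and on every other array it was at most 3.23. Of the 10 arrays, those of day 6 have the title prefix found on no other array, and those of week 9 have WS in their titles. The rest of the 10 have neither, and the part of these labels was not tested. At week 9 the adipocyte level was 4.79 in HFC and 2.95 in HF75, and at weeks 12 and 15 it was 2.35 and 0.74 in HFC but 5.48 and 5.16 in HF20. Within the 11 HFC arrays alone, where day 1 is that exception, r between Igf1 and the adipocyte list was 0.178. The part of these markers in the Igf1 differences was not tested. The genes whose levels followed Igf1 most closely, of 20165 genes over 36 arrays, were Trf (r = 0.916), Athl1 (0.915) and Serpina3m (0.915). Without the LFC array of week 18 and the HF5 array of week 3, r was 0.933, 0.893 and 0.904.

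Igf2 (gene 16002), the ligand best known from fetal growth, is an imprinted gene read from the paternal copy. It was detected on 35 of the 37 arrays that measured it, and the LFC array of day 1 was dropped because its spot was an outlier. Its level in HF20 was 1.99 at week 3 and then fell to 0.78, -0.97, -0.87 and -1.17 at weeks 6, 9, 12 and 15. HFC had 1.45, 1.86, -0.36, 3.00 and 1.74 at these weeks, so HF20 was lower at each week but the first, and the ranges overlap. HF20 differed from HFC by -1.59 (-3.16 to -0.01), with an unadjusted p of 0.0487 and an adjusted p of 0.401 in limma, in 4 of 5 pairs, and the other Igf2 probe gave -1.54. Without week 12 it was -1.02. The mural list fell over the same HF20 weeks, 4.37, 3.94, 2.82, 2.64 and 2.19, against 4.14, 4.50, 3.29, 4.60 and 4.06 in HFC. The adipocyte list rose meanwhile, with 1.84, 1.03, 5.05, 5.48 and 5.16 in HF20 and 1.59, 0.08, 4.79, 2.35 and 0.74 in HFC, and the part of both lists in the result was not tested.

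In HF75, Igf2 was 1.17, 2.72, -0.59, 1.86 and 2.82, above HFC at weeks 6 and 15 and below it at the others, with a difference of 0.06 (-0.82 to 0.93) that had either sign among the alternatives. HF5 had -2.30, 0.96, -0.13, 2.23, 2.05 and 2.40 and differed by -0.71 (adjusted p 0.962 in limma), or -0.10 without week 3 and 0.06 over the 3 pairs on 1 slide. At week 9 Igf2 was below 0 in every diet, which for HFC was the only such array. Across all HFC arrays, Igf2 lay between -0.36 and 3.00, with a median of 1.86. The LFC arrays spread from undetected at week 18, set at -6.88, through a median of 0.19 to 3.05 at week 15. HFC was above LFC in 7 of 10 pairs, by 1.92 (0.13 to 3.71; p 0.037, adjusted p 0.942 in limma), but without week 18 the difference was 1.18, and without day 14, week 3 and week 18 it was 0.68. The other Igf2 probe gave 1.06.

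Igf1r (gene 16001) encodes the receptor that carries the signal of both ligands into the cell. It was detected on 37 of 38 arrays and varied least of the ligand and receptor genes, with a standard deviation of 0.90. HF20 had 0.30, 0.75, -0.74, -1.53 and -0.79, and HF75 had -0.01, 1.86, -1.19, 0.09 and 1.12, over weeks 3 to 15. HFC ran from -0.86 through a median of 0.20 to 1.09, LFC from -2.30 through 0.16 to 0.74, and HF5 from -0.64 through 0.37 to 0.92. All 5 diets thus overlap around 0, and the low values fall at week 9 in HF5 and HF75, at week 12 in HF20 and at days 6 and 14 in LFC. The differences were small: 0.35 in HFC against LFC, 0.31 in HF5, -0.41 in HF20 and 0.37 in HF75, with adjusted p of at least 0.605 in limma. In HF5 5 of 6 pairs were higher. The other Igf1r probes gave -0.36 and 0.13 in HFC against LFC and followed the brightest with r of 0.746 and 0.617 over 36 arrays, so the sign there depends on the probe. It does so in HF75 too, where the other probes gave -0.25 and 0.15.

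The genes most like Igf1r in level were Dgkg (r = 0.867), Cdc42ep3 (0.861) and Inhba (0.861) over 36 arrays, with r of 0.879, 0.883 and 0.865 without the pair of low arrays. The receptor followed the mural list with r of 0.862 over 34 arrays without the LFC array of week 18 and the HF5 array of week 3, and 0.333 with them. Within the 11 HFC arrays that r was 0.724. Igf1 and its receptor tended to opposite levels over all diets (r = -0.533 over 36 arrays, -0.552 without both low arrays) but not within HFC (0.230 over 11 arrays).

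**Figure D1:**
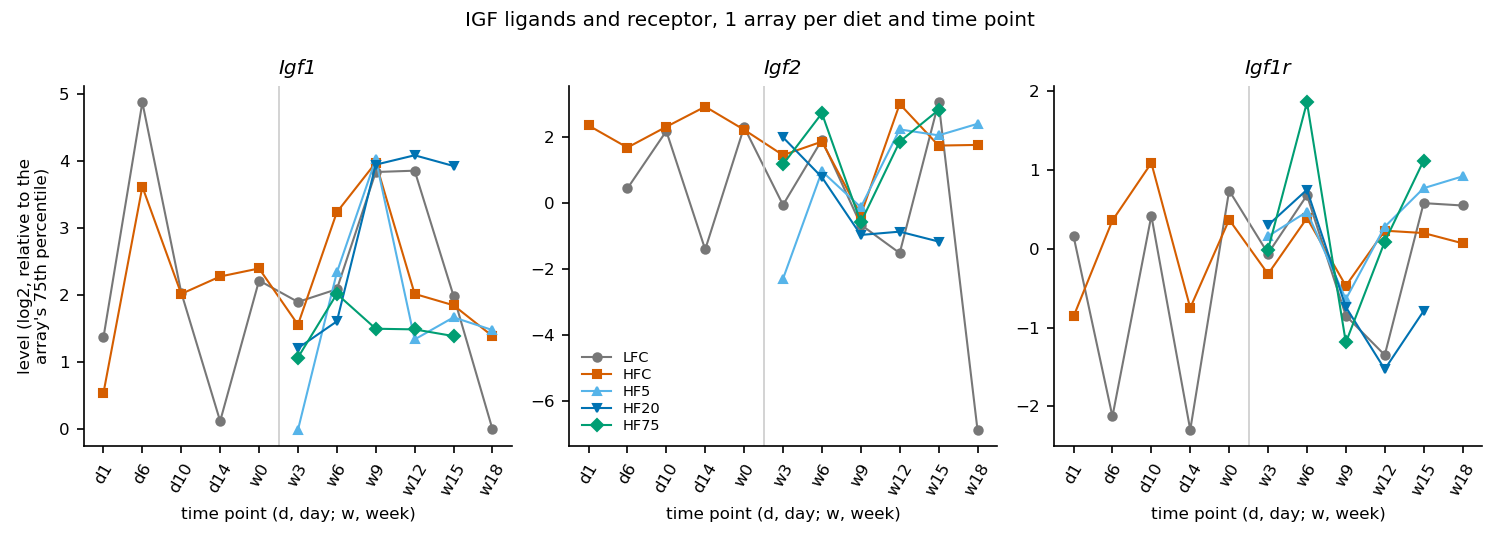
Levels of Igf1, Igf2 and Igf1r (log2, shifted so that each array's 75th percentile is 0) against time point in the 5 diets, 1 point per array; the grey line parts days 1 to 14 and week 0 from weeks 3 to 18. Igf1 in HF75 stays between 1.06 and 2.01, and Igf2 in HF20 falls from 1.99 at week 3 to -1.17 at week 15.

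Igfbp2 (gene 16008), a binding protein that fat cell precursors secrete, is measured by a single probe and was detected on 34 of 38 arrays. Its spread was the widest of the members, with a standard deviation of 2.09 over 38 arrays. HF20 had -3.32, 0.87, -4.28, -4.63 and -4.42, HF75 had -2.27, -0.20, -2.35, -3.17 and -3.70, and HFC had -1.69, -0.58, -5.95, 0.88 and -1.70 at weeks 3 to 15. Week 6 was high in every diet, from -0.58 in HFC to 0.99 in LFC, and week 9 was low in HFC, HF5 and LFC. HF5 had -5.94 (undetected), -0.07, -5.20, -2.59, -1.82 and 0.82 over weeks 3 to 18. LFC ran from -6.19 through a median of -2.27 to 0.99, and HFC from -5.95 through -2.32 to 0.88, so the diets overlap fully.

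HFC minus LFC for Igfbp2 changed sign with time. It was -2.11, -2.24, -1.32 and -1.73 at days 1, 6, 10 and 14 and 0.14 at week 0, then -1.63, -1.57, 0.24, 5.92, 1.50 and 1.08 at weeks 3, 6, 9, 12, 15 and 18. The early differences were thus nearly all below 0, and 4 of the 6 late ones were above 0. Of the late ones, week 9 rests on an undetected LFC value, week 18 on an undetected HFC value and week 3 on an LFC value at the floor. The change between periods was 2.37 (-0.16 to 4.91; p 0.0642, adjusted p 0.815 in limma), or 1.38 without week 12, 1.09 with array weights and 0.36 over pairs on 1 slide. Its adjusted p ran from 0.0371 to 0.999 over the alternatives, and it passed the threshold with another background correction (normexp: 2.70, adjusted p 0.0471), under which 18.3% of all probes were called and the median change of all probes moved from -0.50 to 0.74. Among the diet comparisons, the largest Igfbp2 difference was -1.35 in HF20 (-3.93 to 1.24; adjusted p 0.537), lower in 3 of 5 pairs, and -0.31 without week 12.

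Igfbp2 followed the mesothelial list (r = 0.798 over 36 arrays, 0.802 without both low arrays, 0.596 within 11 HFC arrays) and the epithelial list (0.779, 0.784 and 0.693). The mesothelial list had a median of 2 of its 4 genes detected per array, so its mean includes many background values. The part of these lists in the changes of Igfbp2 was not tested. Its closest genes were Col8a2 (r = 0.898), Mfap4 (0.872) and Scube1 (0.865) over 36 arrays, with 0.884, 0.862 and 0.845 without both low arrays. Igfbp2 lies beside Igfbp5 on chromosome 1 in the RefSeq annotation of GRCm38, yet these neighbours followed each other loosely, with r of 0.402 over 36 arrays and 0.318 without both low arrays.

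Igfbp3 (gene 16009) encodes the main carrier of IGFs in blood. It was detected on 36 of 38 arrays, all but the LFC arrays of weeks 3 and 18. HF20 fell week by week, with 0.15, -0.26, -1.16, -1.89 and -2.20, while HF75 had -0.74, 1.20, -1.39, 0.41 and 0.63 and HFC -0.31, 0.05, -1.72, -0.09 and -0.08. HF20 was lower than HFC in 3 of 5 pairs, by -0.64 on average (adjusted p 0.517 in limma; -0.35 without week 12, -0.27 without week 15), and HF75 was higher in 4 of 5, by 0.45 (adjusted p 0.544; 0.28 without week 6). All 3 sets of values overlap. HF5 spread from -3.61 at week 3 through a median of 0.50 to 1.76 at week 18, HFC from -1.72 through 0.05 to 1.39, and LFC from -6.88 at week 18 through -0.28 to 1.99. The HFC against LFC difference of 0.79 (adjusted p 0.942) was 0.15 without week 18 and -0.11 without day 14, week 3 and week 18.

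The closest partner of Igfbp3 among all genes was Igf2, the ligand it carries. Their levels had r of 0.934 over 35 arrays, 0.847 over 33 without both low arrays and 0.784 within 11 HFC arrays. Pvrl3 (0.910, then 0.785) and Tm4sf1 (0.906, then 0.761) came next for Igfbp3, and for Igf2 the first were Cd200 (0.950, then 0.916) and Tm4sf1 (0.947, then 0.888). Both members ran opposite to Igf1 once the low arrays were left out: r was -0.673 for Igf2 (33 arrays) and -0.702 for Igfbp3 (34), against -0.0765 and -0.0824 with them. Both also followed the endothelial list, with r of 0.885 for Igf2 and 0.868 for Igfbp3, or 0.754 and 0.659 without the low arrays, and 0.436 and 0.319 within HFC. Within HFC they followed the skeletal muscle list more closely (0.860 and 0.702), which they did not do over all diets without both low arrays (0.233 and 0.0860).

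Igf2 and Igfbp3 were the most alike of the members once both low arrays were left out, though Igfbp5 and Igfbp7 were slightly closer with them and Igf1r and Igfbp5 within HFC (r = 0.888), so the promoter windows of Igf2 and Igfbp3 are shown, each of 300 bases around a transcript start. The sequences are from RefSeq (GRCm38.p6), where all 9 members matched, Igf2 with 4 windows and Igfbp3 with 1. The windows were searched on both strands for CCAAT (in 37.4% of 32851 promoters of 300 bases), GGGCGG (35.7%) and TATAAA (13.6%), and capitals mark the matches. The Igf2 window at chr7:142657447-142657746 (minus strand) is shown because, of its 4 windows, only this one has a CCAAT match; it also has 2 GGGCGG matches. The arrays do not tell which Igf2 promoter was in use. The Igfbp3 window at chr11:7213874-7214173 (minus strand) has none of the 3 motifs, and its GC content is 71.7%, against 63.3% for Igf2. A match is a description of the letters, so the windows share none of the searched motifs and nothing is read from that about any factor.
Igf2: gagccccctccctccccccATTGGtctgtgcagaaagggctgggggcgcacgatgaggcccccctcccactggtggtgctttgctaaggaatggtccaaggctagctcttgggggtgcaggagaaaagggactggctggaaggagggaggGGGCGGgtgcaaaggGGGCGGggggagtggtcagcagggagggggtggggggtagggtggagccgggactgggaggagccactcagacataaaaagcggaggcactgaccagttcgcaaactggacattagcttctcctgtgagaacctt
Igfbp3: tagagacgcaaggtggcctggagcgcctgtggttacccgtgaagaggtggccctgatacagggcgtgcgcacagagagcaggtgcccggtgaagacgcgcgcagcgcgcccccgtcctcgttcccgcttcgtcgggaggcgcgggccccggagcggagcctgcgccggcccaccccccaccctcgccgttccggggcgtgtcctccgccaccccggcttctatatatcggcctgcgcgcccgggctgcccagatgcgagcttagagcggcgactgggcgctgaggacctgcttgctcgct

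Igfbp4 (gene 16010) encodes a binding protein that mostly restrains IGFs until the protease PAPP-A cuts it. It has 2 probes, detected on 38 of 38 and 36 of 37 arrays, and they disagreed. The brighter probe read 4.89, 2.39, 5.18, 5.39 and 3.90 in HF75 at weeks 3 to 15, and 3.14, 0.68, 0.66, 1.20 and 2.34 in HFC. HF75 was thus higher at every week, and only its week 6 value lies within the HFC range of these weeks. At week 18 HFC reached 3.90, level with the week 15 value of HF75. The difference was 2.75 (1.47 to 4.02), which is 6.70-fold, with an unadjusted p of 0.00138 and an adjusted p of 0.0787 in limma, higher in 5 of 5 pairs. Over the alternatives the adjusted p ran from 0.0148 to 0.757, and it passed the threshold with normexp (2.79, adjusted p 0.0148) and with array weights (2.17, adjusted p 0.0298). In the setting reported here it did not pass.

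The dimmer Igfbp4 probe went the other way. It read -1.82, -1.60, -1.53, -2.17 and -0.92 in HF75 and -0.99, -0.62, -0.93, -0.78 and -0.55 in HFC at the same weeks. HF75 was lower at every week, and only its week 15 value lies within the HFC range of these weeks. Over all time points HFC ran from -3.77 to -0.04, which holds every HF75 value. The difference was -0.84 (-1.42 to -0.25), with an unadjusted p of 0.0116 and an adjusted p of 0.206 in limma, lower in 5 of 5 pairs. The probes had r of 0.245 over 36 arrays, 0.174 without both low arrays and 0.723 within the 11 HFC arrays. No direction for Igfbp4 in HF75 can therefore be given, and which probe reads the Igfbp4 transcript was not tested.

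Over 36 arrays, the brighter Igfbp4 probe was most like Cask (r = 0.941), Airn (0.923) and LOC100045186 (0.916), with 0.939, 0.920 and 0.914 without both low arrays. The brighter probe followed the T cell list (r = 0.435 over 36 arrays, 0.511 without both low arrays, 0.890 in HFC) and the B cell list (0.347, 0.456 and 0.771). Outside HFC these r are no larger than some others. In the same order, r was 0.408, 0.407 and 0.561 with the mural list and -0.328, -0.556 and -0.513 with the adipocyte list. With Igf2bp3, a pathway gene described below and mostly undetected in HFC, it was 0.714, 0.714 and 0.492. The dimmer probe followed the macrophage list (r = 0.570 over 36 arrays, 0.712 without both low arrays) and the fibroblast list (0.573, then 0.691), with 0.880 and 0.859 in HFC. The part of these lists in the HF75 difference was not tested.

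In the other diets the brighter Igfbp4 probe showed no steady shift. HF20 had 3.11, 1.1, 0.84, 1.05 and 0.93, close to HFC, with a difference of -0.20 (adjusted p 0.755 in limma), or 0.10 without week 15. HF5 had 1.75, -0.02, 0.54, 4.55, 3.59 and 2.82, and its difference of 0.22 was above 0 in 2 of 6 pairs and became -0.41 without week 12. Across all time points, HFC ran from -1.85 at day 1 through a median of 1.40 to 3.90 at week 18, and LFC ran from -1.14 at week 18 through 0.76 to 5.99 on the dim array of week 3. The HFC against LFC difference was 0.22 for the brighter and 0.10 for the dimmer probe, which was dropped on the LFC array of day 14. Without week 18 the brighter probe gave -0.26, so its sign rests on that pair.

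**Figure D2:**
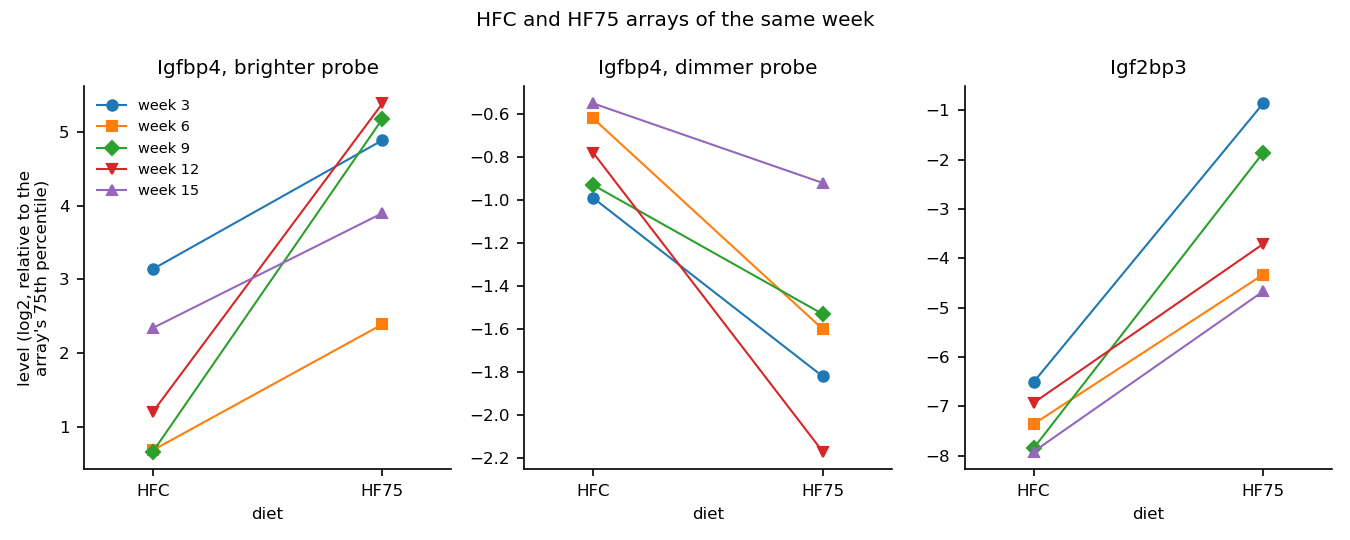
Levels (log2, shifted so that each array's 75th percentile is 0) on the HFC and HF75 arrays of weeks 3 to 15 for both Igfbp4 probes and for Igf2bp3, with lines joining arrays of the same week. The brighter Igfbp4 probe is higher in HF75 in 5 of 5 pairs and the dimmer one is lower in 5 of 5; the Igf2bp3 values of HFC are not above background, so the size of its difference is not measured.

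Igfbp5 (gene 16011), a binding protein that clings to the matrix around cells, was detected on 36 of 38 arrays. HF20 had 3.42, 2.77, 2.98, 2.96 and 2.79 and HFC 3.52, 3.49, 3.22, 3.98 and 4.18 at weeks 3 to 15. HF20 was lower at every week, with only its week 3 value inside the HFC range of these weeks, while the HFC range over all time points holds every HF20 value. The difference was -0.69 (-1.34 to -0.05), with an unadjusted p of 0.0388 and an adjusted p of 0.401 in limma, lower in 5 of 5 pairs. The other Igfbp5 probe gave -0.65, lower in 3 of 5. The mural list falls and the adipocyte list rises on these HF20 arrays, as given for Igf2. With these lists Igfbp5 had r of 0.663 and -0.487 over 34 arrays without both low ones. Over 36 arrays r was 0.906 and 0.318, so the sign for the adipocyte list depends on the low arrays. The part of both lists was not tested. In HF75, with 3.32, 3.99, 3.00, 3.03 and 3.99, the brighter probe differed by -0.21 and the other by 1.02 (adjusted p 0.398), so the probes point opposite ways there.

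Igfbp5 was also higher in HFC than in LFC in 10 of 11 pairs. HFC lay between 2.35 and 4.42 with a median of 3.52, and LFC ran from -6.88 (undetected) at week 18 through 2.21 to 3.88, so the upper LFC values overlap HFC. The difference was 1.81 (0.11 to 3.51; p 0.0386, adjusted p 0.942 in limma), or 0.95 without week 18 and 0.72 without day 14, week 3 and week 18. The other Igfbp5 probe gave 0.61, higher in 7 of 11 pairs. HF5 spread from -0.02 at week 3 through 3.25 to 4.63 at week 18 and was lower than HFC in 5 of 6 pairs, by -0.84 (adjusted p 0.962), but by -0.29 without week 3, and the difference was 0.05 over pairs on 1 slide. The closest genes were Timp3 (r = 0.977), Ramp2 (0.974) and Mmrn2 (0.965) over 36 arrays. These rest partly on the low arrays, since r was 0.858, 0.763 and 0.751 without them. Igfbp5 followed the endothelial list with r of 0.906, or 0.670 without the low arrays and 0.603 in HFC.

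Igfbp6 (gene 16012) encodes the binding protein with a preference for IGF2. It was detected on all 38 arrays. HF20 had 2.94, 4.05, 2.65, 3.18 and 2.23 and HFC 3.61, 4.75, 3.45, 4.61 and 5.02 at weeks 3 to 15. HF20 was lower at every week, and its week 6 value lies within the HFC range of these weeks. The difference was -1.28 (-2.17 to -0.39), which is 2.42-fold, with an unadjusted p of 0.0119 and an adjusted p of 0.401 in limma, lower in 5 of 5 pairs. The other Igfbp6 probe gave -1.40 (p 0.00757, adjusted p 0.401), also lower in 5 of 5, and both probes had r of 0.975 over 36 arrays. The fibroblast list stood at 3.64, 3.97, 3.29, 3.89 and 3.61 in HF20 and 4.24, 4.63, 3.71, 4.28 and 4.46 in HFC, lower in HF20 at each week. Igfbp6 fell furthest below HFC at weeks 12 and 15 (-1.43 and -2.79), where the adipocyte list was 5.48 and 5.16 in HF20 and 2.35 and 0.74 in HFC. The mural list also fell over the HF20 weeks, as given for Igf2. The part of these lists in the result was not tested.

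HF75 was likewise mostly below HFC for Igfbp6, with 2.72, 3.90, 3.73, 4.32 and 3.85, lower in 4 of 5 pairs by -0.59 (adjusted p 0.415 in limma). HF5 was lower in 5 of 6 pairs by -0.49 (adjusted p 0.962; -0.27 without week 3), with values from 2.03 through a median of 3.79 to 4.66. The 3 doses are set against the same HFC arrays, so a high HFC value lowers all 3 differences at once and their shared sign is not 3 separate findings. HFC itself ran from -0.26 at day 1 through a median of 3.61 to 5.02 at week 15, and LFC ran from -2.59 at week 18 through 2.87 to 4.27 at week 6. HFC was higher in 9 of 11 pairs, by 1.07 (adjusted p 0.942), or 0.57 without week 18 and 0.11 without day 14, week 3 and week 18. The change in this difference between periods was 2.17 (-0.36 to 4.70; adjusted p 0.815), or 1.29 without day 1 and 1.36 without week 18, and the other probe gave 2.74 (p 0.0313, adjusted p 0.815).

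Igfbp6 followed fibroblast and mural markers. Its r with the fibroblast list was 0.825 over 36 arrays, 0.726 without both low arrays and 0.956 within 11 HFC arrays. In the same order it was 0.816, 0.692 and 0.82 with the mural list and 0.400, 0.711 and 0.898 with the macrophage list. With the adipocyte list it was -0.142, -0.773 and -0.825. The closest genes were Ecm1 (r = 0.947), Itgbl1 (0.930) and Abi3bp (0.929) over 36 arrays, with 0.913, 0.880 and 0.871 without both low arrays.

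Igfbp7 (gene 29817), which binds IGFs weakly and is abundant in vessel walls, was detected on all 38 arrays and saturated the scanner on 21 of them. A saturated spot has no measured level: its value is the scanner ceiling less the array's 75th percentile, so differences between saturated arrays can be hidden, made or reversed by the scaling and are not read as expression. HF20 had 6.41, 5.21, 5.44, 5.98 and 5.70, HF75 had 6.53, 6.86, 5.17, 6.23 and 6.59, and HFC had 6.33, 6.48, 5.28, 6.53 and 5.98. For this reason no size or direction is given for Igfbp7 in HF20 (-0.37 in limma, adjusted p 0.512, or -0.15 without week 6, where both arrays are saturated) or in HF75 (0.15, or -0.61 after quantile normalization). HFC lay between 5.28 and 6.67 with a median of 6.36, HF5 between 2.73 and 6.79 with 6.11, and LFC between -1.48 and 6.58 with 5.81. The diets overlap almost fully, and the low ends of HF5 and LFC are the arrays of weeks 3 and 18 that are low in vessel markers. In HFC against LFC, 7 of 11 HFC and 6 of 11 LFC arrays were saturated, so no size or direction is given there either. The value was 1.06 in limma (adjusted p 0.942), or 0.37 without week 18 and -0.01 without day 14, week 3 and week 18. Its closest genes were Sparcl1 (r = 0.984), Mmrn2 (0.958) and Ppap2b (0.957) over 36 arrays, with 0.863, 0.721 and 0.787 without both low arrays. With Igfbp5, r was 0.940 over 36 arrays but 0.528 without both low arrays and 0.401 within HFC. It followed the mural list with r of 0.919, or 0.650 without both low arrays and 0.473 in HFC. All these r include the saturated arrays.

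**Figure D3:**
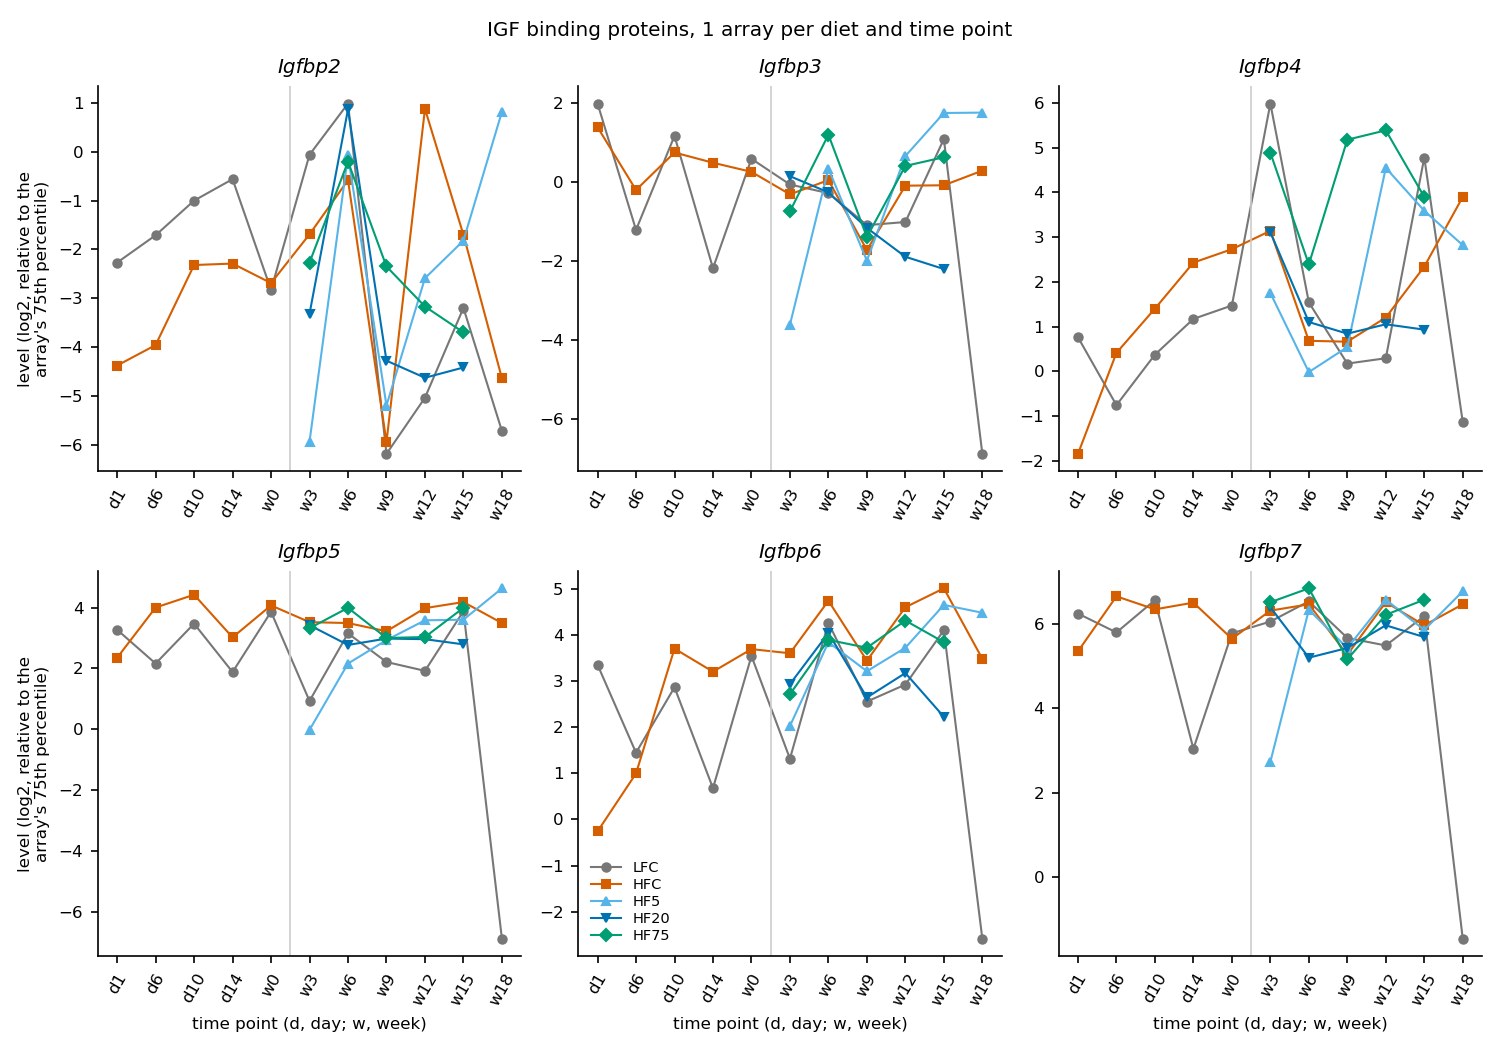
Levels of Igfbp2 to Igfbp7 (log2, shifted so that each array's 75th percentile is 0) against time point in the 5 diets, 1 point per array, with the brighter probe for Igfbp4. LFC at week 18 is the lowest LFC array for Igfbp3, Igfbp4, Igfbp5, Igfbp6 and Igfbp7, and Igfbp4 in HF75 lies between 2.39 and 5.39.

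Seen as a family, most members shared a sign in HF20 and in HFC against LFC, and in the latter week 18 weighed heavily. Of 9 members, 1 was above and 8 were below 0 in HF20 against HFC, with a median of -0.64 against 0.08 for all probes, and this count was the same with normexp, quantile normalization and no floor. With normexp, however, the median of all probes itself moved to -0.40, against a member median of -0.51. One of the 8 is Igfbp7, which is saturated on 3 of the HF20 arrays and on every HFC array of weeks 3, 6, 9, 12 and 15. In the HFC against LFC count below it is saturated on 7 HFC and 6 LFC arrays. The adipocyte list, high in HF20 at weeks 9, 12 and 15, had r of 0.686 with Igf1, the member above 0, without both low arrays. With the other members r was then between -0.773 and -0.437. That shared sign rests on leaving out both low arrays, a choice made after seeing the data. With them r was 0.725 for Igf1 and between -0.686 and 0.335 for the others, above 0 for Igf2, Igfbp3, Igfbp5 and Igfbp7. The part of the adipocyte list in the count was not tested. In HFC against LFC, 8 members were above and 1 below 0, with a median of 0.79 against -0.09, but without week 18 the count was 6 to 3 and the median 0.37, and without day 14, week 3 and week 18 it was 5 to 4 and 0.07. In HF5, 3 were above and 6 below 0 (median -0.49 against 0.01), but 5 above and 4 below without week 3, and 7 above and 2 below over pairs on 1 slide. With normexp the HF5 median was -0.26 for members and -0.3 for all probes. The HF5 array of week 3 is the one low in vessel markers. In HF75 the count was 5 to 4 (median 0.06 against -0.01), and 4 to 5 with quantile normalization. The member that turned is Igfbp7 (0.15, then -0.61), which is saturated on 2 of the HF75 arrays and on the HFC arrays of these weeks. These are counts over 9 genes and not tests, and nothing particular to the family is read from them.

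Time gave no clear split of the members. Between weeks 3 to 18 and the earlier times, 4 members were above and 5 below 0 (median -0.34 against -0.01 for all probes), and 5 above and 4 below with quantile normalization, which moved the median of all probes to 0.25. Without week 18 it was 6 above and 3 below (median 0.19). The differences were -1.11 for Igf2, -1.15 for Igfbp3, -0.99 for Igfbp5, 1.15 for Igfbp4 and 0.80 for Igfbp6, all with an adjusted p of 1.0 in limma. Without week 18 they were -0.56 for Igf2, -0.66 for Igfbp3, -0.20 for Igfbp5 and 1.34 for Igfbp6, and without week 3 Igfbp4 had 0.63. The other probes of Igfbp5 and Igfbp4 gave 0.21 and 0.23. For Igf1, Igf1r and Igfbp2 they were 0.16, 0.26 and -0.34, and each took the other sign when some single time point was left out. Igfbp7 was saturated on 4 of 10 arrays of the earlier times and 9 of 12 of weeks 3 to 18. Its value of -0.34 is therefore not read as a size or direction. The change in the HFC effect was above 0 for 7 members and below for 2 (median 0.81 against -0.50), but above 0 for 3 and below for 6 without week 18. With normexp the members lay below all probes (median 0.22 against 0.74). The change was 2.14 for Igfbp5, 0.87 for Igf2, 0.59 for Igfbp3, 0.01 for Igf1, -0.37 for Igfbp4 and -0.57 for Igf1r. Igfbp7 is among the 7 above 0, but its value of 0.81 (-0.50 without week 18) is not read, because of its saturated arrays. Without week 18, Igfbp5 had 0.62, Igf2 -0.41 and Igfbp3 -0.63. Igf1 and Igfbp4 also took the other sign when some single time point was left out, and Igf1r was -0.12 without day 6.

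A list of 21 other genes of the pathway, all on the array, holds the clearance receptor Igf2r, the insulin receptor and its substrates, the growth hormone receptor and its signalling genes, proteases and their inhibitors, H19 and the Igf2 mRNA binding proteins. Of the 17, 16, 18, 17, 19 and 17 genes tested in the comparisons, in the order given above, limma called only Igf2bp3, in HF75 against HFC. It encodes a fetal protein that binds Igf2 mRNA. It read -0.86, -4.33, -1.86, -3.71 and -4.67 in HF75 at weeks 3 to 15, detected each time, and -6.51, -7.36, -7.85, -6.93 and -7.92 in HFC, where it was detected on none of these arrays. The gene entered the test only through HF75, and the HFC values are not above background, at the floor of the array except at week 3. The call (4.23, adjusted p 0.0227, 5 of 5 pairs) is therefore set against background values, and the size of the difference is not measured: it was 0.45 (adjusted p 0.747) with normexp, and without week 3, 6, 12 or 15 the adjusted p was 0.0995, 0.0654, 0.0634 or 0.0664. What the arrays show is detection in HF75 and none in HFC at these weeks. Igf2bp3 was not particular to HF75, since it was also detected on 4 of 5 HF20, 2 of 6 HF5, 5 of 11 LFC and, at other times, 2 of 11 HFC arrays.

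Among the remaining pathway genes, H19 had the largest difference between periods. H19 is a noncoding RNA of the imprinted Igf2 locus, read from the maternal copy. In HFC it stood at 1.28, 0.98, -0.12, 2.01 and -1.42 at days 1 to 14 and week 0 and at -3.29, -4.76, -4.81, -3.28, -4.07 and -3.99 at weeks 3 to 18. The HFC periods do not overlap, while the lowest LFC values, -4.39, -4.48 and -5.33, fell at weeks 12 to 18. The difference between periods was -3.22 (p 0.00118, adjusted p 1.0 in limma), with adjusted p from 0.0546 to 1.0 over the alternatives. Igf2 itself was also lower in the later period, by -1.11, and its levels followed those of H19 loosely, with r of 0.294 to H19 over 35 arrays, 0.174 without both low arrays and 0.519 in HFC.

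In the other comparisons the largest pathway differences missed the threshold in the setting reported. In HF20 these were Igfals, the subunit that holds IGFs in blood, and the growth hormone receptor Ghr at 1.77 (adjusted p 0.403 in limma, 4 of 5, 1.1 without week 15). Ghr was saturated on 1 of the 5 HF20 arrays, so its size is not exact. Igfals was detected on 4 of 5 HF20 arrays and 2 of the 5 HFC arrays of these weeks, so its difference of 2.59 (adjusted p 0.401; 0.51 with normexp) is mostly set against background values and its size is not measured. In HFC against LFC they were Igfals and the protease gene Htra1. Igfals was detected on 7 of 11 HFC and 6 of 11 LFC arrays, so its size is partly set by background values. Its difference was -1.29, or -0.73 without week 3 and -0.23 with array weights. Htra1 was saturated on 3 of 11 HFC and 2 of 11 LFC arrays, so its size is not exact. Its difference was 1.16, or 0.39 without week 18 and -0.06 without day 14, week 3 and week 18. In HF5 they were H19 at -0.69 and Stat5a, a growth hormone signal carrier, at 0.66, or less without week 3 (-0.34 and 0.34). Between periods Grb10, an adaptor that dampens the receptor, followed H19 with -1.02. For the change in the HFC effect they were H19 at -2.72 (-0.80 with normexp) and Igfals at -1.71 (-0.75 without week 3). The undetected Igfals values of HFC and LFC enter that change too. With normexp, Igfals passed the threshold in the opposite direction (1.67, adjusted p 0.0478; over the alternatives 0.0386 to 0.999), so it has no settled direction.

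**Figure D4:**
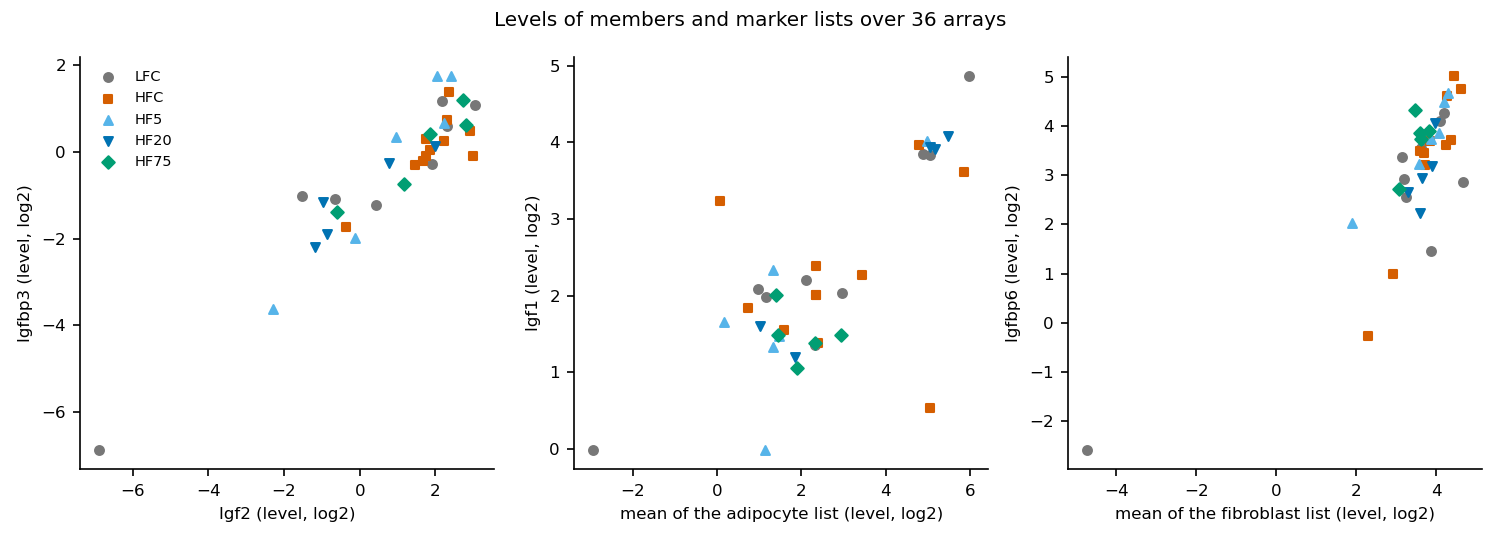
Igfbp3 against Igf2, Igf1 against the mean of the adipocyte list and Igfbp6 against the mean of the fibroblast list (log2 levels), 1 point per array, coloured by diet. The values cover 36 arrays, or 35 for Igfbp3 against Igf2. Igf2 and Igfbp3 have r of 0.934, or 0.847 without the LFC array of week 18 and the HF5 array of week 3; arrays high in adipocyte markers have high Igf1 except HFC day 1.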

How the data were processed

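Per the file headers, the deposited intensities (gProcessedSignal) were made by the authors with Feature Extraction 10.5.1.1 (the labels say 9.1), background-subtracted and detrended within each array with no normalization between arrays. The authors' 40 fold change columns were not used; that table served for symbols and gene IDs. Members and lists were chosen with earlier results of these data known. Of 40 arrays, 38 were used, and 2 of week 18 were left out because their labels conflict.

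Outlier spots were dropped, duplicate spots averaged and each array's 75th percentile subtracted from its log2 values; a probe counted as undetected with under 50% of its spots well above background, and undetected values under the lowest detected level of the array were set to that level. A gene with several probes was read by the one highest on average. limma 3.58.1 in R 4.3.3 (lmFit, eBayes) was fitted to every probe detected in 50% or more of either group's arrays, with the time point as a block, and p was adjusted by Benjamini-Hochberg over all of them with a threshold of 0.05. The periods were compared with diet as a term and the time point as a random block (correlation 0.2). Pairing by time point was checked: after removal of each diet's mean, paired arrays correlated above 0.1 in 9 of 11, 6 of 6, 3 of 5 and 3 of 5 pairs. The median r was 0.35, 0.43, 0.35 and 0.13, and the lowest -0.28, 0.22, -0.23 and -0.05. The array of the same time was the best match in only 5 of 11, 4 of 6, 2 of 5 and 2 of 5 pairs, so the pairing is weak in HF20 and HF75. Tables and figures were made in Python 3.11.15. The code was tested on simulated data.

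Named were all members, the pathway genes past the threshold or else the 2 with the largest difference, the 3 genes with the highest Pearson r to each member over the 36 arrays other than LFC day 14 and week 3, and the gene with the brightest probe of each marker list. Correlations are descriptions without p; arrays share diets, slides and scan days. The lists marked macrophages, fibroblasts, adipocytes, endothelial cells, mural cells, T cells, B cells, skeletal muscle, epithelium, mesothelium and erythroid cells.

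Alternatives were normexp background correction (offset 50), quantile normalization, no filter, no floor, leaving out day 14 and week 3, week 9, day 6 or each time point in turn, no block for the time point, pairs on 1 slide, array weights and other probes. Chosen after seeing the data were pairs scanned on 1 day (or the scan day as a block), leaving out day 14, week 3 and week 18, normexp without day 14 and week 3 for the change in the HFC effect, and the correlations without the LFC array of week 18 and the HF5 array of week 3. The arrays lay on 30 slides scanned on 15 days.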

Additional observations from a re-analysis of the deposited data

Results flagged for a closer look

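In groups of 5 or 6 arrays, 3 of 27 sets of values had an array far from the rest, by a gap to the nearest value that was large against the whole range; chance sets apart about 1 in 20 groups. Each group holds different time points and not replicates. Igfbp2 on the HF20 array of week 6 was 0.87, while the other HF20 arrays lay between -4.63 and -3.32, a gap of 0.763 of the range. Week 6 was high for Igfbp2 in every diet. Igfbp4, by its brighter probe, was 3.11 on the HF20 array of week 3, against 0.84 to 1.1 on the others, a gap of 0.886 of the range. The HFC array of week 3 read 3.14, so that level is not particular to HF20. Igfbp7 was 2.73 on the HF5 array of week 3, the array low in vessel markers, against 5.44 to 6.79 on the others, a gap of 0.668 of the range. The HF5 arrays of weeks 6, 9 and 15 were saturated, so the size of this gap is not measured.

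One of the arrays that the labels place in no group rose above all 11 LFC arrays for a pair of members by value. Igfbp5 was 4.47 there, against -6.88 to 3.88 in LFC. Igfbp7 was 7.07, against -1.48 to 6.58 in LFC, but its spot was saturated there and on 6 of the LFC arrays, so its place above them is not read as a higher level.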

How the results depend on the processing

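In every comparison, the count of members called was 0 under all alternatives run, except as follows. In HF75 against HFC it was 1 with normexp and 1 with array weights, both times Igfbp4 by its brighter probe (adjusted p 0.0148 and 0.0298, within 0.0148 to 0.757 over its alternatives); over all probes normexp called 239 of 28910 (0.827%) and array weights 1459 of 28910 (5.05%), against 295 (1.02%). In the change in the HFC effect it was 1 with normexp and 1 with normexp without day 14 and week 3 (chosen after seeing the data), both times Igfbp2 (adjusted p 0.0471 and 0.0371, within 0.0371 to 0.999); the cause was not tested, though normexp called 5351 of 29215 probes there and 9353 of 29298 without those times. Of the dimmer probes, which the counts leave out, the dimmest of Igf1 passed with array weights (-1.09, adjusted p 0.0463) and the dimmest of Igf1r with normexp without day 14 and week 3 (2.27, adjusted p 0.0413). Leaving out each time point in turn gave 0 to 0 members called in all 6 comparisons, and with no replicate block, in place of the paired fit, the count was 0 in each. Over all probes the HF75 calls leaned on the block, with 295 calls when paired and 0 with no replicate block.

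Among members, 3 differences in HF75 moved by at least the standard deviation of the pair differences: Igfbp4 to -0.84 and Igfbp5 to 1.02 with their other probes, and Igfbp7 to -0.61 with quantile normalization. In the change in the HFC effect, moves of at least the standard deviation of levels over LFC and HFC gave -2.39 for Igfbp4 over pairs on 1 slide, 1.67 for Igfals with normexp, 1.87 for Igfals with normexp without day 14 and week 3, and 0.12 for H19 with the latter. Igf2bp3 in HF75 missed the threshold under 8 alternatives, and with normexp its difference, taken against background values, shrank from 4.23 to 0.45. The remaining 261, 162, 151, 127, 261 and 268 values of the 6 comparisons made no such move. With all 38 arrays in place of 36, the 3 genes most like a member shared 1 for Igf1, Igf1r, Igfbp2 and Igfbp7, 2 for Igf2, Igfbp3, Igfbp5 and Igfbp6, and 3 for Igfbp4.

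No pair of HF20 or HF75 with HFC lies on 1 slide, so that alternative was not run there. Only 2 HF75 pairs were scanned on 1 day, so in HF75 diet and scan day cannot be told apart at weeks 3, 6 and 9. At week 9 the HF75 title also lacks the letters WS that the HFC title has, which holds for every gene of that pair. One array per diet and time, saturation of Igfbp7 on 21 arrays, undetected values on the LFC arrays of weeks 3 and 18, and probes that disagree for Igfbp4 and Igfbp5 limit what the levels can show. Htra1 and Ghr were saturated on some arrays too.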

Other observations

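For 2 arrays of week 18 the title names one of HF20 and HF75 and the source name the other, so they enter no comparison. On the first, 49.6% of the spots were marked as outliers; Igf1 was -1.66, Igf2 -0.38, Igf1r -1.88, Igfbp3 -1.08, Igfbp4 2.03, Igfbp5 1.11, Igfbp6 1.21 and Igfbp7 4.11. On the second, with 0.119% of spots marked, Igf1 was 1.51, Igf2 2.74, Igf1r 0.43, Igfbp3 1.43, Igfbp4 3.32, Igfbp5 4.47, Igfbp6 4.13 and Igfbp7 7.07. Igfbp7 was saturated on both, and Igfbp2 could not be read on either because its spots were outliers.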
